A study of Mus musculus with 8 samples.

Results

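Glycolysis and the pentose phosphate pathway were followed through 32 genes, taken as the rows of the deposited expression table that carry their symbols. All 32 were found among the 25124 genes of the table, and all 32 were among the 11700 genes expressed highly enough to be tested (a mean of at least 0.5 FPKM, fragments scaled to transcript length and library size). They comprise 3 glucose transporters, 10 enzymes of upper glycolysis, 2 regulators of fructose-2,6-bisphosphate, 6 enzymes of lower glycolysis, 4 genes of lactate production and transport, and 7 genes of the pentose phosphate pathway, 3 of its oxidative and 4 of its non-oxidative branch. The genes lie on 15 chromosomes, 7 of them on chromosome 6.

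The study asked how extracellular peroxiredoxin 1 (PRDX1), a peroxidase that can also act on cells as a ligand of Toll-like receptor 4, affects osteoclast differentiation. RNA was sequenced from mouse osteoclast precursor (OCP) cells, which are adherent macrophages grown from bone marrow with macrophage colony-stimulating factor (M-CSF). The sources differ on the animals: the labels give C57BL/6 mice aged 6 to 8 weeks, with no sex, while the culture methods name male ICR mice aged 6 weeks. In every group the OCP cells were grown with 30 ng/mL M-CSF before treatment, and whether that dose stayed the same during treatment is not stated. Cells then received no further agent (no PRDX1 + no RANKL), 200 nM recombinant PRDX1 (PRDX1 + no RANKL), 100 ng/mL of the osteoclast-inducing cytokine RANKL (no PRDX1 + RANKL), or both agents (PRDX1 + RANKL), for 48 hours. No gene was deleted in any group. The PRDX1 carried a histidine tag, was made in bacteria and was passed over an endotoxin-removing resin. Each group had 2 libraries. No source used here says whether these came from separate cultures or animals, so the p-values measure the spread between libraries, which may be technical.

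Glycolysis converts glucose to pyruvate, and lactate dehydrogenase turns pyruvate into lactate, which monocarboxylate transporters carry across the membrane. The pentose phosphate pathway branches off at glucose 6-phosphate, where its oxidative branch makes NADPH and its non-oxidative branch exchanges sugars with glycolysis. Macrophages raise glycolysis when stimulated by inflammatory signals, and differentiating osteoclasts are known to use both glycolysis and mitochondrial respiration. Several glycolytic genes are textbook targets of the hypoxia-inducible factor HIF-1 and of MYC.

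The promoters shown here belong to the lactate transporters Slc16a1 and Slc16a3, which were higher with RANKL, and to the fructose-2,6-bisphosphate regulators Pfkfb3 and Pfkfb4, which were lower. Each line gives the 250 bases before the annotated start in RefSeq (GRCm38.p6, the build also known as mm10), read 5′ to 3′ on the strand of the gene. Capitals mark the core of the hypoxia response element, ACGTG or GCGTG, on either strand, so that CACGT and CACGC are its reading on the other strand. The windows are chr3:104638414-104638663 (+ strand), chr11:120948817-120949066 (+ strand), chr2:11553930-11554179 (- strand) and chr9:108991652-108991901 (+ strand).
Slc16a1: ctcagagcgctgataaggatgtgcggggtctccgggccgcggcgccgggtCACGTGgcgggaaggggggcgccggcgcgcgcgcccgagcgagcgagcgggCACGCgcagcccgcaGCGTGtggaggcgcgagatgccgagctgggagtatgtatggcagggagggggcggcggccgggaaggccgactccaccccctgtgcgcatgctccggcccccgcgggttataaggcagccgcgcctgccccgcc
Slc16a3: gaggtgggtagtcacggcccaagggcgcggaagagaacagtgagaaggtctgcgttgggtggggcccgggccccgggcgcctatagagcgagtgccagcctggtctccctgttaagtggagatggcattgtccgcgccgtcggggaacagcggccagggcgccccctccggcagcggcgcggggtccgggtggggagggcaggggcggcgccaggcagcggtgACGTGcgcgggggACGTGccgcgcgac
Pfkfb3: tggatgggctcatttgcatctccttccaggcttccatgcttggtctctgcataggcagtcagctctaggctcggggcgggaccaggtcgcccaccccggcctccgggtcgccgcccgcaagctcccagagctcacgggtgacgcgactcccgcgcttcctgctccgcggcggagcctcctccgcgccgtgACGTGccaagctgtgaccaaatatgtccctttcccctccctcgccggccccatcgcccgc
Pfkfb4: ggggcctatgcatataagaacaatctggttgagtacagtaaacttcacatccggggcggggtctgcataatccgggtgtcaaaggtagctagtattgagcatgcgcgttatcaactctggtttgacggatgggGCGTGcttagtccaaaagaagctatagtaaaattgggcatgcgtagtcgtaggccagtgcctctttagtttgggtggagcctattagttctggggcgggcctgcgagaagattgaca
All 4 sequences hold the core, in genes that were higher as in genes that were lower. Over windows that run from 250 bases before to 50 bases after the start, 25 of the 31 members with a promoter in the RefSeq set held it (80.6%), beside 62.4% of the 11619 promoters of tested genes and 43.8% of all 32851 promoters. Among members called in the comparison of RANKL with control, 5 of the 5 that rose held it, as did 3 of the 4 with a promoter among those that fell. The E-box CACGTG, which overlaps the core, was present in 3 member promoters (9.68%, beside 10.3% of tested genes), and the antioxidant response core TGACNNNGC in 5 (16.1%, beside 14.6%). A match is a description of the letters only.

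The 8 libraries held between 27284657 and 46171827 reads, recovered from the FPKM values. The libraries of a group differed by more than counting error (chi-square per degree of freedom of 4.71 to 9.58), and in no group did they agree within sampling noise. Macrophage markers (8 genes, none at 0) summed to between 15718 and 17485 FPKM in control and 16547 and 17009 FPKM with PRDX1, against 9857 to 10278 FPKM with RANKL and 13421 to 13821 FPKM with both, so the labelled cell type was present in every group. RANKL without PRDX1 lowered 6 of these 8 markers, beside 9.96% of all tested genes, and PRDX1 under RANKL raised 4, beside 6.03%. Osteoclast markers (10 genes) summed to 44.8 to 45.4 FPKM in control and 88.1 to 92.4 FPKM with PRDX1, against 1884 to 1987 FPKM with RANKL and 251 to 259 FPKM with both. Neutrophil markers (9 genes) summed to between 8.61 and 12.8 FPKM in control and 16.4 and 17.3 FPKM with RANKL, against 40.2 to 44.4 FPKM with PRDX1 and 35.3 to 38.9 FPKM with both. Stromal markers (6 genes) summed to at most 10.5 FPKM without PRDX1 and at least 15.7 FPKM with it. The part of any of these markers' cells in the results for RANKL and PRDX1 was not tested. In bulk RNA, fewer cells of a type and less RNA per cell cannot be told apart.

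The summed level of the members was 4521 and 4566 FPKM in the control libraries, 4168 and 4258 FPKM with PRDX1, 4857 and 5216 FPKM with RANKL, and 4634 and 4732 FPKM with both. The sum was thus lowest in both PRDX1 libraries and highest in both RANKL libraries, and no group overlapped another. It was 1.03% of all FPKM in control, 0.94% to 0.96% with PRDX1, 1.10% to 1.17% with RANKL and 1.06% to 1.09% with both. Averaged over the 8 libraries, Pkm (the pyruvate kinase gene) was highest at 944 FPKM, Aldoa followed at 558 FPKM and Taldo1 at 506 FPKM, and Eno2 was lowest at 0.683 FPKM. Of the 32 members, 14 were in the top 10 percent of tested genes by mean level and 22 in the upper 50 percent, so the levels ran from among the highest to among the lowest of the tested genes.

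**Figure D1:**
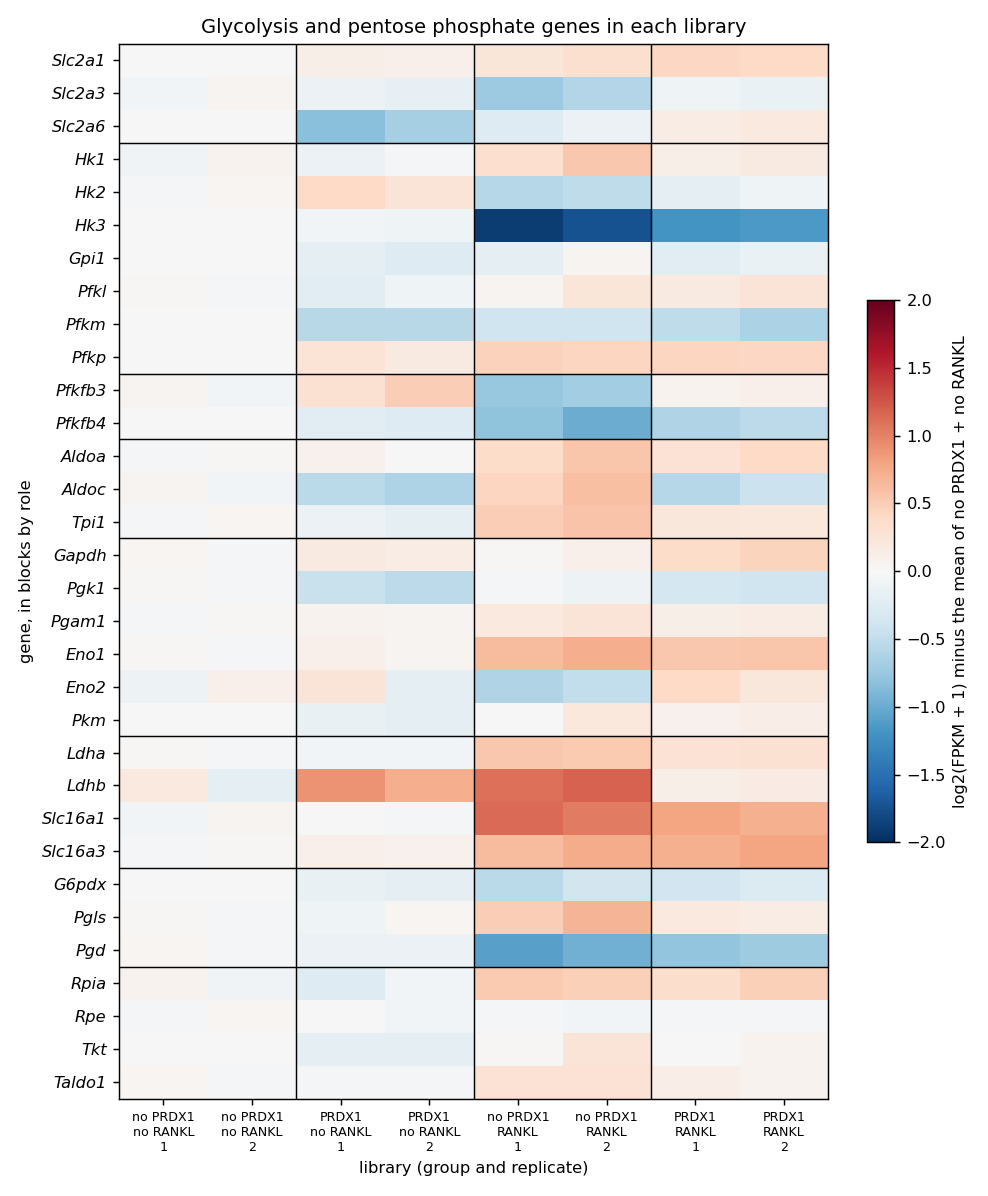
Level of each of the 32 members (rows, in blocks by role) in each of the 8 libraries (columns), as log2(FPKM + 1) minus the mean of the 2 no PRDX1 + no RANKL libraries; red is higher and blue lower. Hk3 is the darkest blue in both RANKL libraries, and Ldhb and the lactate transporter Slc16a1 the darkest red.

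RANKL without PRDX1 changed 10 of the 32 members, 5 upward and 5 downward. A gene was called when limma gave a Benjamini-Hochberg adjusted p below 0.05 over all tested genes and the change on the log2(FPKM + 1) scale was at least 1.5-fold. This made 31.2% of the members called, beside 21.8% of all tested genes, of which 11.8% were higher and 9.96% lower. With no limit on the fold change, 24 of the 32 members had an adjusted p below 0.05, beside 59.9% of all tested genes. The members that rose were Ldhb, Slc16a1, Slc16a3, Eno1 and Pgls. The members that fell were Hk3, Pgd, Pfkfb4, Pfkfb3 and Slc2a3. Of the 4 genes of lactate production and transport 3 rose, both fructose-2,6-bisphosphate regulators among the members fell, and in the oxidative pentose phosphate branch Pgls rose and Pgd fell. The median log2 change was 0.14 over members and 0.10 over all tested genes. The libraries of the groups did not overlap for 28 members, beside 77.9% of all tested genes. The member median was 0.05 with quantile normalization and 0.07 with upper quartile scaling, where the median of all tested genes was 0.02 and 0.04. It also rests on single libraries, being 0.04 without RANKL replicate 2 and 0.24 without RANKL replicate 1.

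PRDX1 without RANKL changed 2 members, raising Ldhb and lowering Slc2a6 (6.25% of members, beside 5.79% of all tested genes, 3.80% higher and 1.99% lower). With a pseudocount of 0.1 and with limma-voom 3 members were lowered, beside 3.08% and 3.32% of all tested genes. The libraries of the groups did not overlap for 24 members, beside 65.8% of all tested genes. The median log2 change was -0.07 over members and -0.04 over all tested genes. The member median was -0.03 with quantile normalization and with upper quartile scaling, where the median of all tested genes was -0.03 and -0.01. Under RANKL, PRDX1 changed 5 members: Hk3, Pfkfb3 and Eno2 were higher, and Aldoc and Ldhb were lower (15.6% of members, beside 10.2% of all tested genes, 6.03% higher and 4.17% lower). The libraries did not overlap for 23 members, beside 71.0% of all tested genes. The median was -0.06 over members and -0.06 over all genes. The member median was 0.04 with quantile normalization and -0.01 with upper quartile scaling, where the median of all tested genes was -0.03 and -0.02. This comparison shares the RANKL libraries with that of RANKL against control. The members called without RANKL belong to glucose transport and lactate production, and those called under RANKL to upper glycolysis, the fructose-2,6-bisphosphate regulators, lower glycolysis and lactate production.

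**Figure D2:**
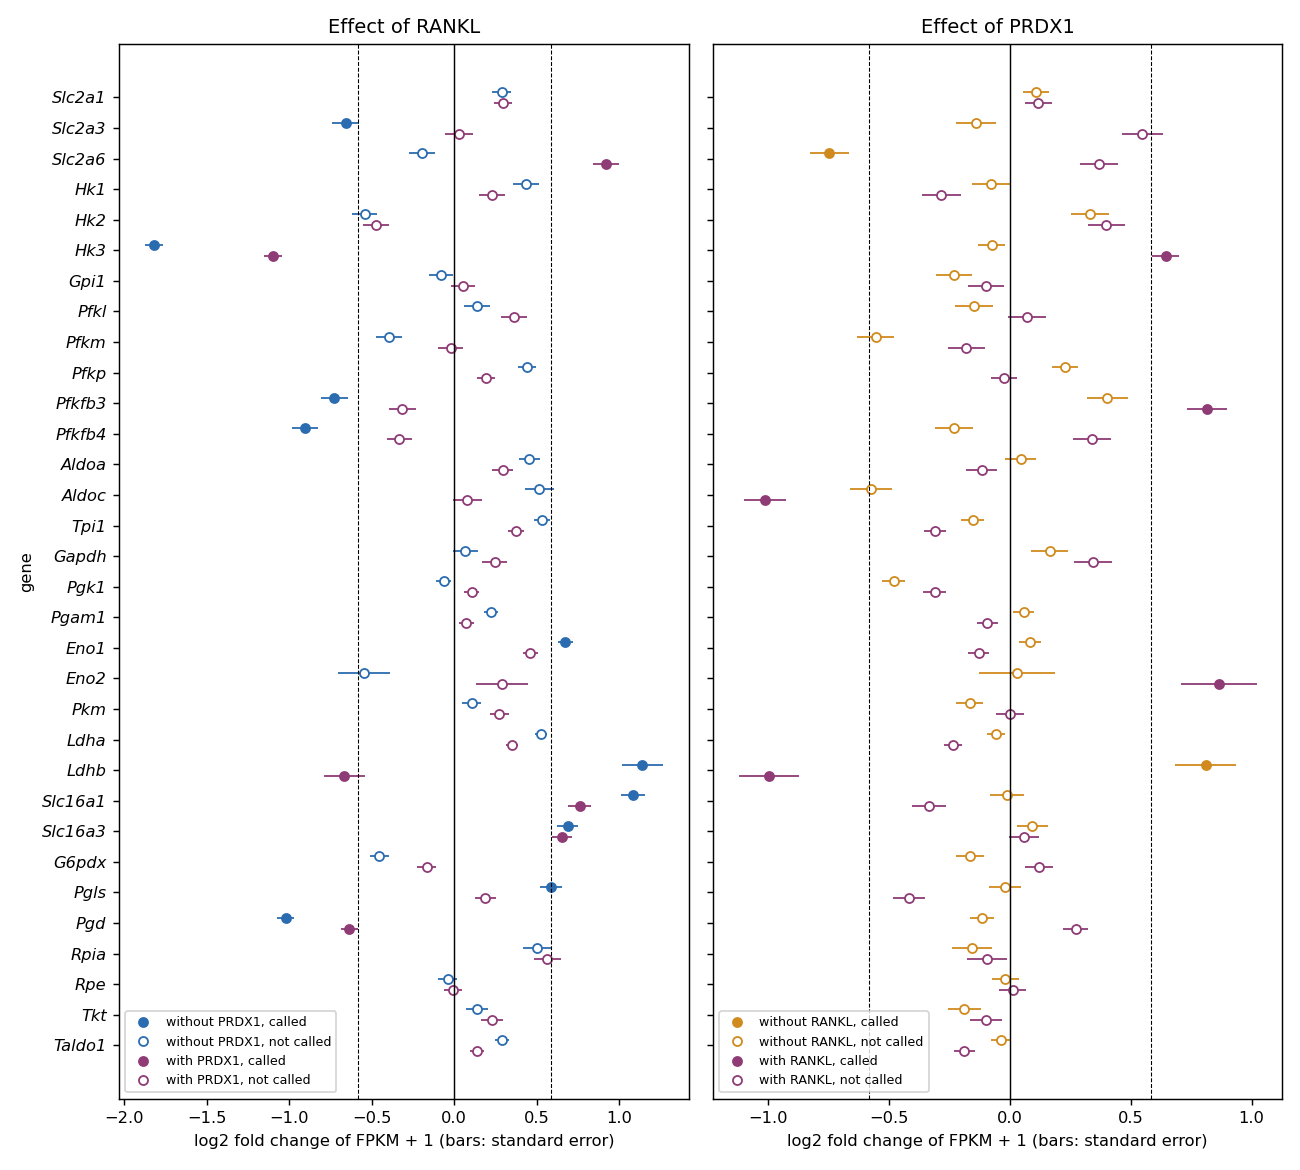
Log2 fold change of FPKM + 1 with its standard error for each member, for RANKL without and with PRDX1 (left) and for PRDX1 without and with RANKL (right). Filled points passed both thresholds, dashed lines mark a change of 1.5-fold; Hk3 lies farthest left for RANKL at -1.82, and Ldhb moves from 0.81 without RANKL to -1.0 with it for PRDX1.

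Among the glucose transporters, Slc2a6 and Slc2a3 differed between groups and the ubiquitous transporter Slc2a1 passed no call. Slc2a6 stood at 12.5 and 12.4 FPKM in control libraries, at 6.53 and 7.53 FPKM with PRDX1, at 10.2 and 11.3 FPKM with RANKL and at 13.9 and 14.4 FPKM with both. It was thus lowest in both PRDX1 libraries and highest in both PRDX1 + RANKL libraries. PRDX1 lowered it without RANKL by a log2 change of -0.75 ± 0.08 (SE, adjusted p = 9.1e-05), whereas its change under RANKL was 0.37 ± 0.08, below 1.5-fold. Slc2a3, a high-affinity transporter, read 5.57 and 6.11 FPKM in control, 5.28 and 5.13 FPKM with PRDX1, 3.14 and 3.53 FPKM with RANKL and 5.46 and 5.21 FPKM with both. The RANKL libraries alone were low, and their log2 change from control was -0.66 ± 0.08 (adjusted p = 6.98e-05). Slc2a1 was at 18.8 to 19.1 FPKM in control and 25.2 to 25.7 FPKM with both agents, a log2 difference of 0.41 ± 0.06.

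Hexokinase 3 (Hk3), the hexokinase typical of myeloid cells, showed the largest change of any member between RANKL and control on the log2(FPKM + 1) scale, which understates low genes such as Eno2. It stood at 129 and 127 FPKM in control and at 123 and 120 FPKM with PRDX1. With RANKL it read 33.8 and 37.5 FPKM, and with both agents 55.1 and 57.3 FPKM. Both groups with RANKL lay far below both groups without it, and PRDX1 + RANKL lay between. The summed macrophage markers were likewise lowest with RANKL and intermediate with both agents, and their part in this pattern was not tested. The log2 change by RANKL was -1.82 ± 0.06 without PRDX1 (adjusted p = 2.41e-09) and -1.10 ± 0.06 with it (adjusted p = 3.68e-07), and PRDX1 under RANKL was 0.64 ± 0.06 higher (adjusted p = 1.11e-05). This last call was lost without RANKL replicate 1, where the value was 0.57.

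The other hexokinases passed no call in the main fit of log2(FPKM + 1). Hk2, the inducible muscle-type hexokinase, read 8.84 and 9.46 FPKM in control, 12.4 and 11.2 FPKM with PRDX1, 5.83 and 6.10 FPKM with RANKL and 7.88 and 8.51 FPKM with both. It was highest in both PRDX1 libraries and lowest in both RANKL libraries, but its largest log2 difference, -0.54 ± 0.08 for RANKL against control, was below 1.5-fold on that scale. With a pseudocount of 0.1 this difference was -0.61 and with limma-voom -0.62, and Hk2 was called lower by both. Hk1, the housekeeping hexokinase, lay between 19.6 and 31.4 FPKM over all libraries. As a share of the summed FPKM of the 3 hexokinases, Hk3 made up 80.8% ± 1.2 (SD, n = 2) in control, 79.2% ± 0.17 with PRDX1, 50.3% ± 0.45 with RANKL and 63.8% ± 0.30 with both. Hk1 took 13.5% ± 0.93 in control and 41.2% ± 0.88 with RANKL. The summed level of the 3 genes was 158 ± 0.083 FPKM in control, 153 ± 1.6 FPKM with PRDX1, 70.8 ± 5.9 FPKM with RANKL and 88.2 ± 2.9 FPKM with both. No test was run on these shares and sums.

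**Figure D3:**
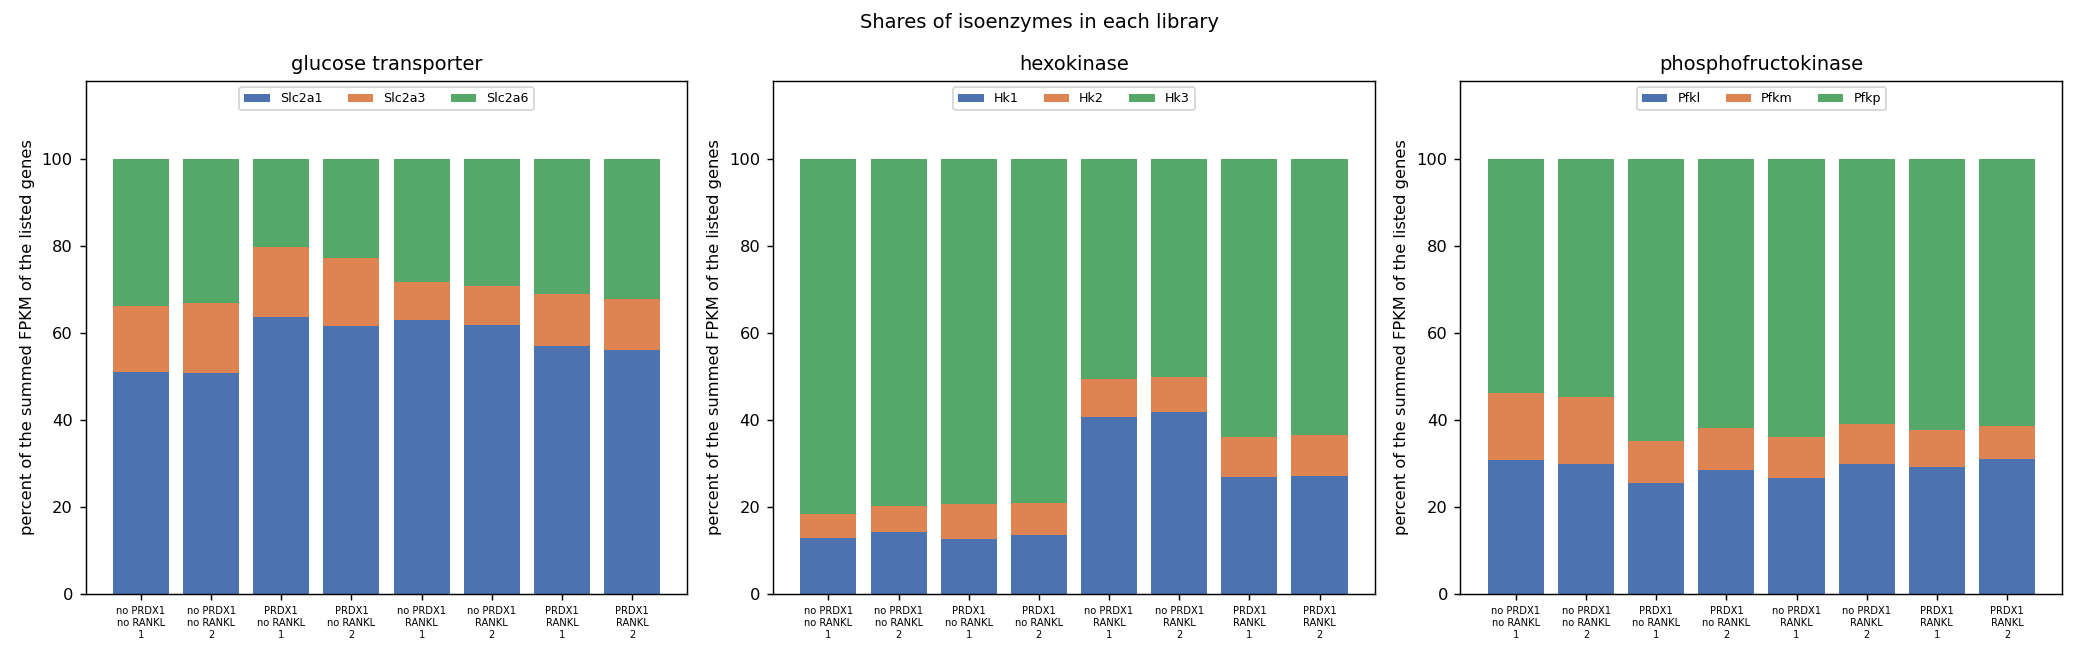
Share of each gene in the summed FPKM of its family (percent), for glucose transporters, hexokinases and phosphofructokinases, with 1 bar per library. Hk3 falls from 80.8% of hexokinase FPKM in control to 50.3% with RANKL, where Hk1 reaches 41.2%.

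Phosphofructokinase catalyses the committed step of glycolysis, and the Pfkfb enzymes set the level of its activator fructose-2,6-bisphosphate. Pfkfb3, the isoenzyme with the highest kinase activity, read 7.07 and 6.51 FPKM in control, 8.65 and 9.98 FPKM with PRDX1, 3.63 and 3.79 FPKM with RANKL and 7.19 and 7.38 FPKM with both. It was low in the RANKL libraries, and with both agents it was slightly above control. RANKL without PRDX1 lowered it by a log2 change of -0.73 ± 0.08 (adjusted p = 3.63e-05), and PRDX1 under RANKL raised it by 0.82 ± 0.08 (adjusted p = 3.4e-05). Pfkfb4 read 12.1 and 12.1 FPKM in control, 10.3 and 9.97 FPKM with PRDX1, 6.47 and 5.54 FPKM with RANKL and 7.62 and 8.09 FPKM with both. RANKL lowered it by -0.90 ± 0.08 (adjusted p = 4.7e-06), and its value with both agents stayed below both groups without RANKL.

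The phosphofructokinase genes themselves passed no call in the main fit of log2(FPKM + 1). Pfkp, the platelet type, held 54.3% ± 0.56 of their summed FPKM in control and between 61.9% and 63.4% on average in the other groups. Pfkm, the muscle type, held 15.3% ± 0.16 in control and 8.04% to 9.61% elsewhere, with 6.40 and 6.50 FPKM in the control libraries and 3.79 to 4.67 FPKM in the other 6. The log2 difference of Pfkm by PRDX1 without RANKL was -0.55 ± 0.08, just below 1.5-fold on the log2(FPKM + 1) scale. It was -0.65 with a pseudocount of 0.1 and -0.67 with limma-voom, and Pfkm was called lower by both. For the 2 agents together against control, Pfkm was called lower with these settings and with quantile normalization. Gpi1, which interconverts glucose and fructose phosphates, lay between 137 and 171 FPKM, and the liver type Pfkl between 10.9 and 15.4 FPKM.

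Aldolase C (Aldoc), a minor aldolase best known from brain, differed with PRDX1 while the major aldolase Aldoa did not pass a call. Aldoc read 7.43 and 6.89 FPKM in control, 4.62 and 4.33 FPKM with PRDX1, 10.0 and 11.3 FPKM with RANKL and 4.51 and 5.08 FPKM with both. Both groups with PRDX1 were low and the RANKL libraries were high. PRDX1 under RANKL lowered it by a log2 change of -1.01 ± 0.09 (adjusted p = 1.06e-05), and without RANKL the difference was -0.58 ± 0.09, just below 1.5-fold on the log2(FPKM + 1) scale. With a pseudocount of 0.1 the latter was -0.67 and with limma-voom -0.67, and Aldoc was called lower by both. Its share of aldolase FPKM was 1.60% ± 0.014 with RANKL and 0.785% ± 0.026 with both. Aldoa was at 467 to 505 FPKM in the libraries without RANKL and at 583 to 700 FPKM in those with it. Tpi1, the triose phosphate isomerase, was at 274 and 291 FPKM with RANKL and at 190 and 200 FPKM in control, a log2 difference of 0.53 ± 0.05 that was below 1.5-fold.

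In lower glycolysis the major enolase Eno1 rose with RANKL, from 280 and 273 FPKM in control to 429 and 457 FPKM, by a log2 change of 0.67 ± 0.04 (adjusted p = 6e-07). With PRDX1 it read 299 and 288 FPKM, and with both agents 402 and 407 FPKM. Every library with RANKL was thus above every library without it. Eno2, the neuron-type enolase, had few reads. It held 42 and 83 reads in control, 78 and 41 reads with PRDX1, 8 and 17 reads with RANKL and 139 and 101 reads with both, or 0.584 and 0.818, 1.02 and 0.478, 0.121 and 0.203, and 1.24 and 0.992 FPKM. The RANKL libraries were lowest and the PRDX1 + RANKL libraries overlapped the range with PRDX1. PRDX1 under RANKL raised it by 0.86 ± 0.16 (adjusted p = 0.00151), on a scale that understates the change of so low a gene. Limma-voom on the recovered reads gave 2.75 for Eno2 in the same comparison.

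Pgk1, Pgam1 and Pkm passed no call. Pgk1, the first ATP-making enzyme, was at 399 and 387 FPKM in control and 288 and 274 FPKM with PRDX1, a log2 difference of -0.48 ± 0.05. With both agents it was at 307 and 299 FPKM, against 388 and 364 FPKM with RANKL, so each group with PRDX1 lay below each group without it. Pgam1 lay between 110 and 134 FPKM. Pkm lay between 819 and 1075 FPKM, and PRDX1 under RANKL left it at a log2 difference of 0.00 ± 0.06.

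Gapdh, a widely used reference gene, was listed at 4.80 and 4.48 FPKM in control, 5.37 and 5.28 FPKM with PRDX1, 4.75 and 5.08 FPKM with RANKL and 6.30 and 6.71 FPKM with both. These are low for an enzyme whose neighbours in the pathway stood above 100 FPKM. Of the 100-base windows of its transcript, 85.8% occurred unchanged in other annotated genes, 86 of them, and 94.2% of its bases were near-identical to 81 other genes, 76 of which were pseudogenes. How reads matching several places were treated is not given in the sources used here, and its part in the level was not tested. The log2 difference of Gapdh between both agents and control was 0.41 ± 0.08, below 1.5-fold.

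Other members share sequence as well. Eno1 was near-identical to other genes over 85.6% of its bases, Ldhb over 76.8%, Pgk1 over 68.8%, Pkm over 65.5%, Ldha over 62.9% and Gpi1 over 55.3%, so with Gapdh 7 members were so over at least 50 percent. Their levels are uncertain to the extent that reads were divided among copies. At the other end, 18 members shared no 100-base window with any other gene, among them Hk3, Pfkfb3, Pfkfb4, Aldoc, Eno2, Slc2a3, Slc2a6, Slc16a1, Slc16a3, Pgls and Pgd. Exons of Rpe, Pkm and G6pdx overlapped those of a neighbouring gene over 17.9%, 15.3% and 15.1% of their bases.

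**Figure D4:**
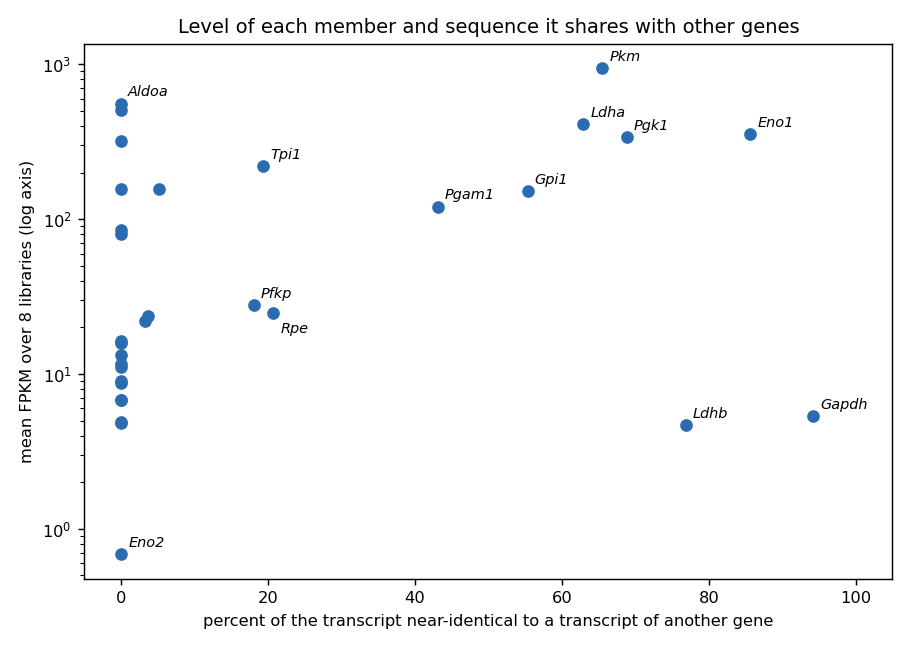
Mean FPKM over the 8 libraries (log axis) against the percent of each member's transcript that is near-identical to a transcript of another gene. Gapdh, at 94.2%, has the most shared sequence and a mean of 5.35 FPKM, while Pkm at 65.5% is the most abundant member.

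Of the roles with more than 3 genes, lactate production and transport had the highest median log2 change with RANKL, 0.89, and 3 of its 4 genes rose. Ldha, the main lactate dehydrogenase, read 359 and 350 FPKM in control, 339 and 341 FPKM with PRDX1, 513 and 509 FPKM with RANKL and 431 and 436 FPKM with both. All libraries with RANKL were above all without it, but the log2 difference by RANKL, 0.53 ± 0.04, was below 1.5-fold. Ldhb, the heart-type subunit, read 3.29 and 2.24 FPKM in control, 5.92 and 5.17 FPKM with PRDX1, 7.0 and 7.45 FPKM with RANKL and 3.05 and 3.19 FPKM with both. Each agent alone was above control in both libraries, and the combination was back within the control range. RANKL raised it by a log2 change of 1.14 ± 0.12 (adjusted p = 2.48e-05) and PRDX1 by 0.81 ± 0.12 (adjusted p = 0.000975), whereas PRDX1 under RANKL lowered it by -1.0 ± 0.12 (adjusted p = 0.000139). Ldhb made up 0.772% ± 0.19 of lactate dehydrogenase FPKM in control and 1.39% ± 0.068 with RANKL.

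Slc16a1 (MCT1) and Slc16a3 (MCT4) export or import lactate. Slc16a1 was at 7.41 and 7.98 FPKM in control and 7.77 and 7.46 FPKM with PRDX1, against 18.1 and 16.8 FPKM with RANKL and 13.9 and 13.3 FPKM with both. Its log2 change by RANKL was 1.08 ± 0.07 without PRDX1 (adjusted p = 5.43e-07) and 0.76 ± 0.07 with it (adjusted p = 2.28e-05). Slc16a3 was at 11.4 and 11.8 FPKM in control, 12.5 and 12.3 FPKM with PRDX1, 18.6 and 19.97 FPKM with RANKL and 19.5 and 20.7 FPKM with both. The RANKL libraries of both genes lay above all libraries without RANKL, and for Slc16a3 they overlapped those of PRDX1 + RANKL. Slc16a3 rose by 0.69 ± 0.06 without PRDX1 (adjusted p = 6.81e-06) and 0.65 ± 0.06 with it (adjusted p = 3.03e-05).

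**Figure D5:**
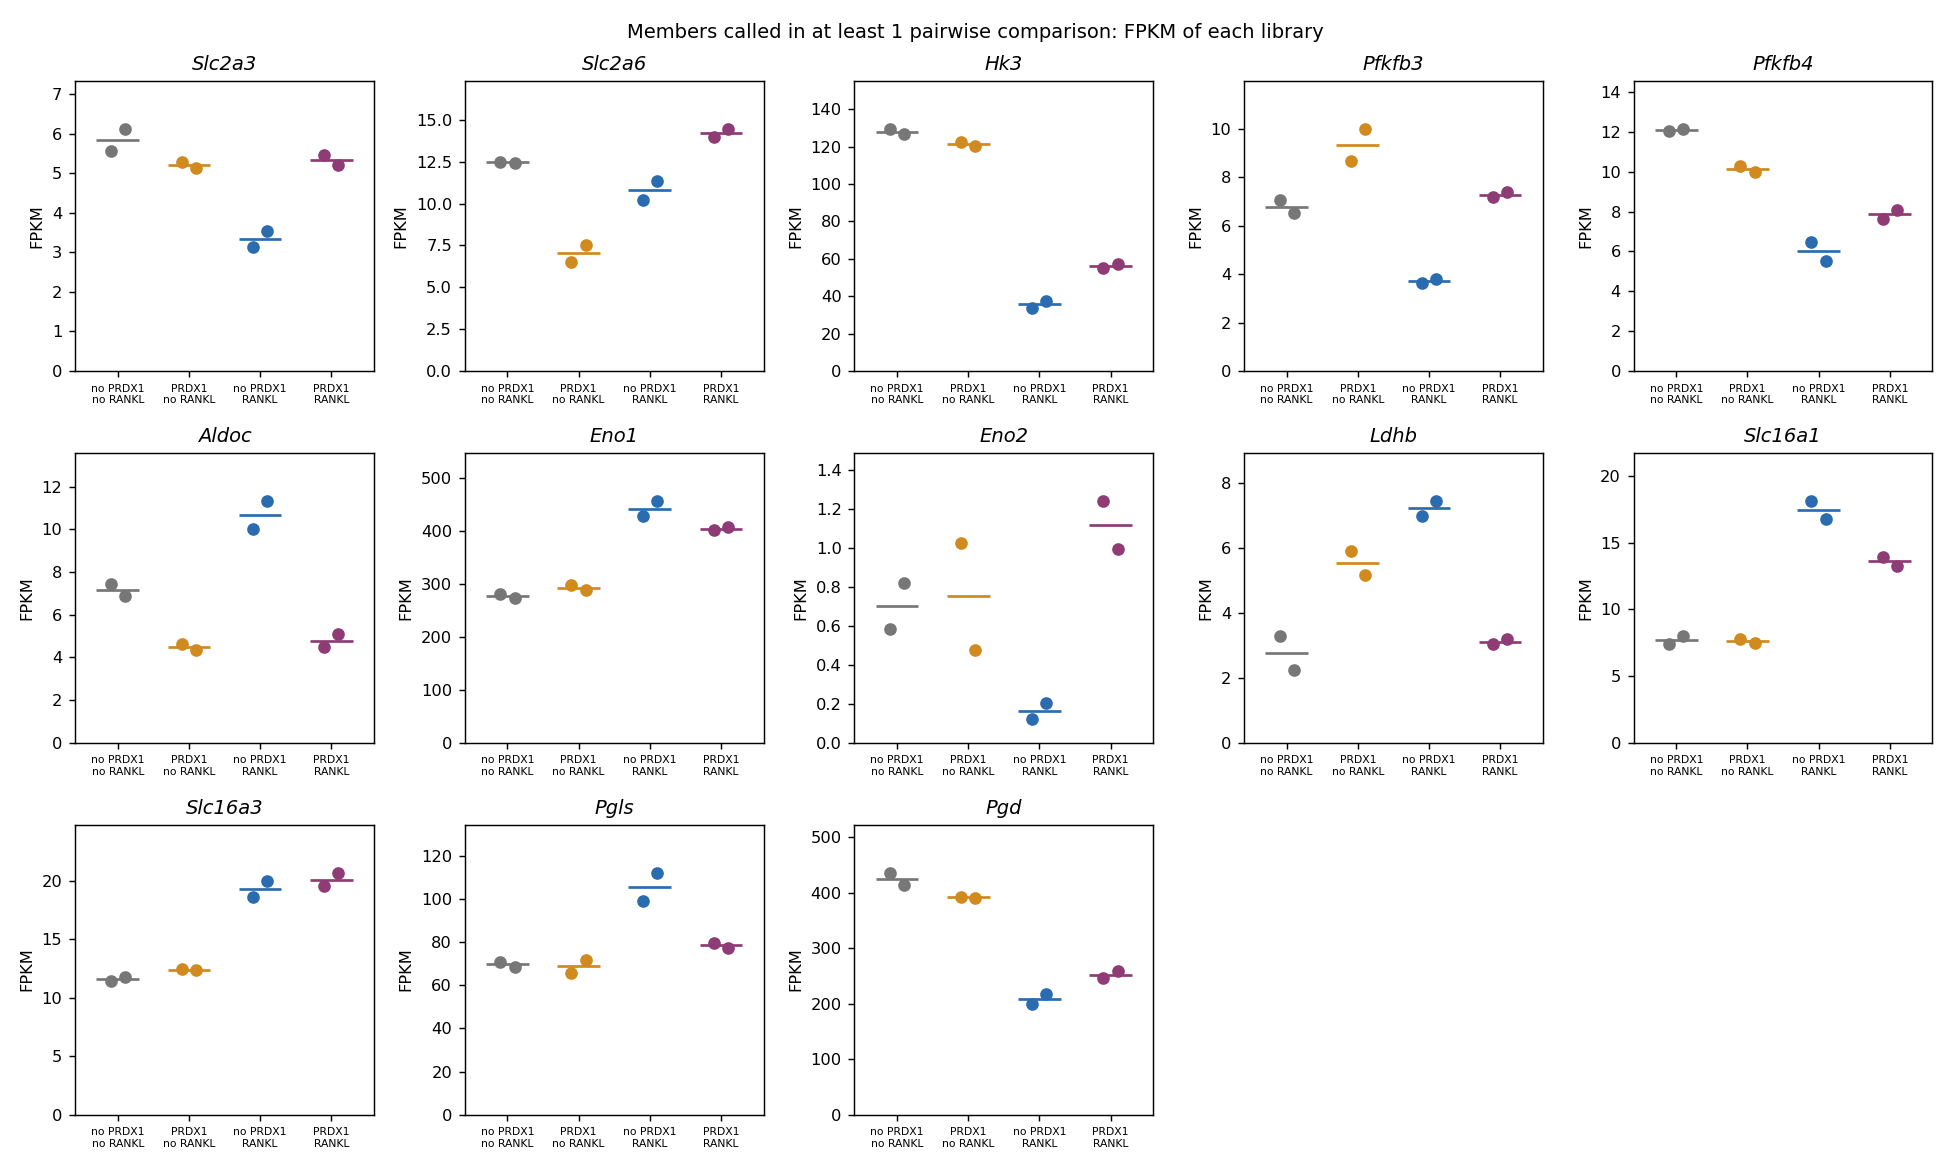
FPKM (linear axis from 0) of the 13 members called in at least 1 of 5 pairwise comparisons, with 1 point per library and a line at the group mean. In Hk3, Pfkfb3, Pfkfb4, Pgd and Slc2a3 both RANKL libraries are below both control libraries, and in Ldhb, Slc16a1, Slc16a3, Eno1 and Pgls both are above.

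In the oxidative branch of the pentose phosphate pathway the enzymes moved in different directions with RANKL. Pgd, which makes NADPH from 6-phosphogluconate, stood at 435 and 413 FPKM in control, 393 and 390 FPKM with PRDX1, 200 and 217 FPKM with RANKL and 246 and 258 FPKM with both. Both groups with RANKL were low, by a log2 change of -1.02 ± 0.05 without PRDX1 (adjusted p = 8.15e-08) and -0.63 ± 0.05 with it (adjusted p = 9.08e-06). Pgls, the preceding lactonase, rose by 0.59 ± 0.07 with RANKL (adjusted p = 3.17e-05), from 71.1 and 68.7 FPKM to 99.0 and 112 FPKM, and read 65.9 and 71.9 FPKM with PRDX1 and 79.9 and 77.5 FPKM with both. The change of Pgls sat at the 1.5-fold limit: it was not called under either alternative scaling, or without control replicate 2 or RANKL replicate 2. G6pdx, the first enzyme of the branch, read 185 and 182 FPKM in control, 165 and 162 FPKM with PRDX1, 126 and 141 FPKM with RANKL and 140 and 151 FPKM with both, and the log2 difference of -0.45 ± 0.06 by RANKL was below 1.5-fold. Of the exon bases of G6pdx, 15.1% overlap its neighbour Ikbkg, and the sources used here do not say how reads in that overlap were assigned.

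The 4 enzymes of the non-oxidative branch passed no call in any comparison in the main fit of log2(FPKM + 1). Rpia differed most by RANKL, at 14.7 and 13.1 FPKM in control and 20.5 and 19.8 FPKM with RANKL, a log2 difference of 0.50 ± 0.08. Under PRDX1 its log2 difference by RANKL was 0.57, and it was called higher at 0.60 both with a pseudocount of 0.1 and with limma-voom. Rpe lay between 24.1 and 25.8 FPKM in all libraries, the narrowest range for its level among these 4 genes. Tkt and Taldo1, the transketolase and transaldolase that link the branch to glycolysis, lay between 136 and 186 FPKM and between 460 and 579 FPKM. Their log2 differences by RANKL were 0.14 ± 0.07 and 0.29 ± 0.04.

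Under PRDX1, RANKL changed 6 members: Slc2a6, Slc16a1 and Slc16a3 rose, and Hk3, Ldhb and Pgd fell (18.8% of members, beside 8.50% of all tested genes, 4.52% higher and 3.98% lower). The libraries did not overlap for 26 members, beside 74.3% of all tested genes. The median log2 change was 0.19 over members and 0.07 over all tested genes. With quantile normalization these medians were 0.16 and 0.01, and with upper quartile scaling 0.14 and 0.02. The fall of Ldhb, -0.67 ± 0.12 (adjusted p = 0.00214), was lost without PRDX1 replicate 1. Of the 10 members called for RANKL without PRDX1, 4 were called in the same direction under PRDX1, namely Hk3, Pgd, Slc16a1 and Slc16a3. Ldhb was called in the opposite direction. Of all 2548 tested genes called for RANKL without PRDX1, 34.5% were called the same way under PRDX1. The other 5 members, Eno1, Pgls, Pfkfb3, Pfkfb4 and Slc2a3, were not called. The size of the RANKL change was smaller under PRDX1 for all 10, as for 96.4% of the 2548 genes, and since these genes were chosen by their change without PRDX1 nothing particular to the members follows from it. The interaction test reached the call only for Hk3, Ldhb and Slc2a3 of the 10. Pfkfb3, Pfkfb4, Pgd and Pgls had an adjusted p below 0.05 in that test, with a difference under 1.5-fold. A missing call therefore does not mean that the RANKL change was the same with and without PRDX1. The 2 comparisons share no library.

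Set against control, both agents together changed 4 members (12.5%, beside 12.8% of all tested genes, 7.50% higher and 5.34% lower), and the libraries did not overlap for 29 members, beside 74.7% of all tested genes. Slc16a1 rose by 0.75 ± 0.07 (adjusted p = 1.55e-05) and Slc16a3 by 0.75 ± 0.06 (adjusted p = 7.29e-06), while Hk3 fell by 1.17 ± 0.06 (adjusted p = 1.15e-07) and Pgd by 0.75 ± 0.05 (adjusted p = 1.51e-06). The number lowered was 4, with Pfkm and Pfkfb4 added, with a pseudocount of 0.1, quantile normalization and limma-voom, beside 6.98%, 6.30% and 7.31% of all tested genes. The comparisons of PRDX1, of RANKL and of both with control share the control libraries. The median log2 change was 0.14 over members and 0.03 over all tested genes.

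By the interaction test, 5 members responded to PRDX1 differently depending on RANKL, 4 of them upward and 1 downward (15.6%, beside 8.85% of all tested genes, 4.50% upward and 4.35% downward). The effect of PRDX1 was more positive under RANKL for Slc2a6 (1.11 ± 0.11, adjusted p = 8.67e-05), Hk3 (0.72 ± 0.08, adjusted p = 0.000148), Slc2a3 (0.69 ± 0.12, adjusted p = 0.00227) and Eno2 (0.84 ± 0.22, adjusted p = 0.0225). For Ldhb the difference was -1.81 ± 0.18 (adjusted p = 7.15e-05). The difference for Eno2 was 2.20 with a pseudocount of 0.1 and 2.79 with limma-voom. Eno2 lost its call without any filter on low values and without 4 of the 8 libraries, namely control replicate 2, PRDX1 replicate 2, RANKL replicate 1 and PRDX1 + RANKL replicate 1. In all, 13 members were called in at least 1 pairwise comparison and 19 in none, beside 27.6% of all tested genes called in at least 1 of these 5 comparisons.

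Other genes of glucose metabolism, listed apart from the members, gave the surroundings. Of 27 further genes of glycolysis and glucose entry, 15 were expressed highly enough to be tested. RANKL raised Pfkfb2 (1.15 ± 0.09, adjusted p = 2.71e-06), another regulator of fructose-2,6-bisphosphate, and Galm (1.0 ± 0.09), a sugar mutarotase, and lowered the transporters Slc2a9 (-1.05 ± 0.09) and Slc2a8 (-0.64 ± 0.09). These 4 calls made 26.7% of the 15, beside 21.8% of all tested genes. PRDX1 under RANKL raised 0 of the 15 and lowered 2 (13.3%, beside 10.2% of all tested genes), Pfkfb2 by a log2 change of -1.08 ± 0.09 (adjusted p = 1.03e-05) and the monocarboxylate transporter Slc16a7 by one of -0.67 ± 0.09 (adjusted p = 0.000197). Of 11 further genes of the pentose phosphate pathway, 8 were tested and 0 were called by limma in any comparison, with 5 at an adjusted p below 0.05 for RANKL without PRDX1 but under 1.5-fold, a limit without fold that 59.9% of all tested genes passed in that comparison.

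Among 13 tested regulators of glycolysis linked to HIF-1 and MYC, 15.4% were called for RANKL, beside 21.8% of all tested genes, and 7.69% for PRDX1 under RANKL, beside 10.2%. RANKL raised Myc (1.09 ± 0.06, adjusted p = 2.24e-07) and lowered Epas1 (-1.0 ± 0.12, adjusted p = 3.86e-05), which encodes HIF-2 alpha. PRDX1 under RANKL raised Hif1a, the gene of HIF-1 alpha, by 0.67 ± 0.07 (adjusted p = 2.41e-05). Of 15 tested HIF-1 targets outside glycolysis, PRDX1 without RANKL raised 2, Hilpda (1.21 ± 0.07) and the growth factor Vegfa (0.83 ± 0.08), and lowered 2, Ndrg1 (-0.88 ± 0.08) and the pyruvate dehydrogenase kinase Pdk1 (-0.65 ± 0.09). These 4 made 26.7% of the targets, beside 5.79% of all tested genes in that comparison. RANKL without PRDX1 raised 3 of these targets and lowered 2 (33.3%, beside 21.8% of all tested genes), with the cytokine Mif at 0.98 ± 0.05, Ndrg1 at -0.98 ± 0.08 and the prolyl hydroxylase P4ha2 at -1.73 ± 0.12. PRDX1 under RANKL raised 0 of these targets and lowered 1, Pdk1 (6.67%, beside 10.2% of all tested genes). Of 14 tested genes that decide the fate of pyruvate, RANKL raised 6, among them the pyruvate dehydrogenase subunits Pdhb (0.91 ± 0.05), Dlat (0.82 ± 0.06) and Pdhx (0.78 ± 0.09), and lowered Me1 (-0.71 ± 0.07), so that 7 of the 14 were called, beside 21.8% of all tested genes. PRDX1 under RANKL raised 0 of the 14 and lowered 4 (28.6%, beside 10.2% of all tested genes), among them Pdk1 (-0.84 ± 0.09), Pdhb and Pdha1 (both -0.73, with SE 0.05 and 0.06). Pdk1 belongs both to this list and to the HIF-1 targets, and is counted in the shares of each.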

How the data were processed

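RNA from 8 libraries, 2 in each of 4 groups, was sequenced by the authors (paired ends, mRNA). The submitters' processing notes name HISAT2, HOMER, DESeq2 and genome build mm10, with no versions. The authors deposited 1 table of FPKM values per gene, scaled to each library's total and to transcript length, and this FPKM table was the only input. Grouping followed the sample titles. The FPKM values fell on whole reads for 100% of the genes checked (tolerance of 0.1 reads), which gave the reads and totals quoted.

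Log2(FPKM + 1) was fitted for the 11700 genes that averaged 0.5 FPKM or more, with limma 3.58.1 (R 4.3.3) with an intensity trend, all 8 libraries together, leaving 4 residual degrees of freedom, with Benjamini-Hochberg adjustment over those genes. The thresholds, adjusted p of 0.05 and 1.5-fold, follow the study's methods. An exact permutation test of 2 against 2 libraries cannot reach 0.05. The script was tested on simulated data. Limma-voom on the recovered reads called 999 genes for PRDX1 and 3149 for RANKL, against 678 and 2548.

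The members and gene lists were chosen with earlier results of these data known. Values in every library are given for members called for PRDX1, with or without RANKL, or in the interaction. They are also given for the 8 called members with the largest change by RANKL, and for Hk2, Pfkfb3, Ldha, G6pdx and Gapdh. Pgls was added because it was called, and Pgk1, which was not called, was added outside this rule. Other members are named by role. Of each other list up to 3 called genes with the largest change by RANKL or by PRDX1 are named, and Slc2a8, Me1 and, for PRDX1 without RANKL, Pdk1 were added after their values were seen. Promoters were read from RefSeq. Shared sequence was measured on annotated transcripts by exact 100-base windows and by BLAST 2.17.0 (at least 95% identity over at least 100 bases). Marker lists for B cells, T cells, erythroid and dendritic cells summed to at most 2.13, 1.46, 0.381 and 4.41 FPKM. The alternatives were a pseudocount of 0.1, no filter and a minimum of 2 FPKM, quantile and upper quartile scaling, a replicate block, limma-voom on reads, and each library left out.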

Additional observations from a re-analysis of the deposited data

Results flagged for a closer look

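For 5 members the effect of PRDX1 under RANKL differed from its effect without RANKL, by the interaction term of the limma fit (15.6%, beside 8.85% of all tested genes, 4.50% upward and 4.35% downward). On the log2(FPKM + 1) scale the difference was 0.72 for Hk3, 1.11 for Slc2a6, -1.81 for Ldhb, 0.84 for Eno2 and 0.69 for Slc2a3. The effects themselves, without and then under RANKL, were -0.08 and 0.64 for Hk3, -0.75 and 0.37 for Slc2a6, 0.81 and -1.0 for Ldhb, 0.03 and 0.86 for Eno2, and -0.14 and 0.55 for Slc2a3. The effects were thus of opposite sign for 4 of the 5, all but Eno2. As the 5 were picked by the difference between these effects, their signs are a description. For Slc2a3 and Hk3 the effect without RANKL was small and was not called. The effects of Slc2a3 and Slc2a6 under RANKL were not called either, so Ldhb alone had both effects called. The difference for Eno2 rests on 8 and 17 reads in the RANKL libraries and lay between 0.61 and 2.79 under the alternatives.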

How the results depend on the processing

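Of 32 member calls over the 6 comparisons, 28 were kept under all 15 alternatives and 0 changed direction. The calls lost under some alternative were Pgls by RANKL (lowest 0.50), Hk3 by PRDX1 under RANKL (0.57), Ldhb by RANKL under PRDX1 (-0.58) and Eno2 in the interaction (0.61, and 2.79 with limma-voom). Calls gained with both a pseudocount of 0.1 and limma-voom were Pfkm and Aldoc for PRDX1 without RANKL, Hk2 and Eno2 for RANKL, Slc2a3 for PRDX1 under RANKL, Rpia for RANKL under PRDX1, Pfkm and Pfkfb4 for both agents and Pfkfb4 in the interaction. The number of members lowered by PRDX1 without RANKL thus went from 1 to 3 with both settings, and was between 1 and 2 when a library was left out. The share of all tested genes lowered went from 1.99% to 3.08% and 3.32% with these settings. It lay between 1.99% and 2.27% when a library was left out. The number lowered by both agents went from 2 to 4 with a pseudocount of 0.1, quantile scaling and limma-voom, while the share of all tested genes lowered went from 5.34% to 6.98%, 6.30% and 7.31%. With summed reads in place of FPKM, the change in share by RANKL was -3.12 percentage points for Slc2a6 (FPKM -4.69), -32.6 for Hk3 (-30.4), 0.212 for Aldoc (0.122) and -0.299 for Eno2 (-0.217). For these shifts the cause was not tested. The member median of PRDX1 under RANKL was 0.04 under quantile scaling and 0.01 without RANKL replicate 2, against -0.06. The median of all tested genes was -0.03 and -0.05 in these settings, against -0.06. Deviations of libraries with the same replicate number correlated by 0.0085 to 0.096 between groups. With 2 libraries in each group, these values cannot show whether such libraries shared a culture, an animal or a batch. The replicate block changed 0 member calls and gave 1 member lower and 1 higher for PRDX1 without RANKL. Depth limits Eno2 most, at 8 reads in 1 library; every other member had at least 121 reads in each.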
